A study of Homo sapiens with 18 samples.

Results

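The genes described here are 10 secreted inflammatory signals: the neutrophil chemokines CXCL1, CXCL2, CXCL3 and CXCL8, the chemokine CCL20, and the cytokines IL1A, IL1B, IL6, IL11 and LIF. They were followed across all 8 groups of treatment and time. A gene is measured on the HGU133A array by 1 or more probe sets, each a set of short oligonucleotides. Some probe sets can match more than 1 transcript. The members were the probe sets whose only gene symbol in the platform annotation is one of these names. This gave 14 probe sets for the 10 genes, out of 22283 probe sets on the array and 11963 genes that have a probe set with a single symbol. The cells were MSTO-211H, an established human mesothelioma line grown as a monolayer. They received 760 µM piroxicam (P), an anti-inflammatory drug that blocks cyclooxygenases, 4.5 µg/mL cisplatin (C), a platinum drug that damages DNA, or both drugs (P/C), or were left untreated. RNA was taken at 8 h, a time the study chose because apoptosis was not yet seen, from 2 cultures for each of P, C, P/C and untreated cells, and at 24 h, when apoptosis was present, from 3 P, 3 C, 2 P/C and 2 untreated cultures. The study describes the replicates as biological, and as all come from 1 cell line, the p values measure the spread between cultures of that line.

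CXCL1, CXCL2, CXCL3 and CXCL8 are small secreted proteins that draw neutrophils through the receptors CXCR1 and CXCR2, while CCL20 draws lymphocytes and dendritic cells that carry CCR6. IL1A and IL1B both signal through IL1R1. IL1B is made as an inactive precursor that is cleaved by caspase-1, whereas the precursor of IL1A is already active and is released from damaged cells. IL6, IL11 and LIF share the receptor chain gp130, encoded by IL6ST, through which they activate STAT3. Transcription of many of these genes is induced through NF-kB, and their mRNAs tend to be short-lived because they carry AU-rich elements. Mesothelioma cells are known to secrete CXCL8 and IL6.

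The 4 neutrophil chemokine genes lie together on chromosome 4. Their promoters are shown because CXCL1, CXCL2 and CXCL3 share nearly the same sequence just before the start of transcription. Yet CXCL1 and CXCL2 differed in opposite directions with piroxicam at 8 h, taken over both cisplatin states. In GRCh38.p14 the genes span 73740569 to 73743716 (CXCL8), 73869393 to 73871308 (CXCL1), 74036589 to 74038689 (CXCL3) and 74097040 to 74099195 (CXCL2). The sequences are from RefSeq, 5′ to 3′ on the strand of each gene, and capitals mark matches to the NF-kB-like motif GGNNTTTCC and, in CXCL8, to the AP-1-like motif TGANTCA. The stretches are the last 100 bases before the start for CXCL1 (chr4:73869293-73869392, plus strand), CXCL2 (chr4:74099196-74099295, minus strand) and CXCL3 (chr4:74038690-74038789, minus strand), and bases 150 to 51 before the start for CXCL8 (chr4:73740419-73740518, plus strand).
CXCL1: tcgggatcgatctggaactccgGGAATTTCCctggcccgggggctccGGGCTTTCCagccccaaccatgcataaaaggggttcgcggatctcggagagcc
CXCL2: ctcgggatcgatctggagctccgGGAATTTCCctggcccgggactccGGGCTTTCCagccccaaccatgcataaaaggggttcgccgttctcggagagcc
CXCL3: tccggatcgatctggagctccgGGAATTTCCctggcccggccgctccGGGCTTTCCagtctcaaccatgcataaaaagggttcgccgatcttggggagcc
CXCL8: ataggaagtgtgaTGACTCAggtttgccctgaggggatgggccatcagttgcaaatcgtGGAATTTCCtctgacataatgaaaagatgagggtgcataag
Over the last 100 bases before the start, aligned, CXCL1 was 94.1% identical to CXCL2 and 90.0% identical to CXCL3, and CXCL2 was 89.2% identical to CXCL3. CXCL8 was 42.9% to 46.1% identical to the other 3. CXCL1 and CXCL3 each had NF-kB-like matches beginning 78 and 53 bases before the start, and CXCL2 had them at 77 and 53. CXCL8 had 1 NF-kB-like match at 91 bases and 1 AP-1-like match at 137 bases. Searched on both strands in windows from 250 bases before to 50 bases after the start, the NF-kB-like motif was present in 6.26% of 35116 RefSeq promoter windows and the AP-1-like motif in 7.71%. Another motif, TGATGNAAT, of the kind that dimers of C/EBP and ATF proteins bind, was present in 0.991% of all windows and in none of the 9 members with a window. These matches are descriptions of the sequence, not of binding.

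The deposited values were log2 signals made by the authors with GCRMA, so a difference of 1 is a doubling of the signal, and a level of 6.64 is a signal of 100. The array medians were 2.72 to 2.83. Levels of different probe sets are not compared with each other, because probe sets differ in brightness. Of the 14 probe sets, 7 passed a filter on low and flat signals: CXCL1, CXCL2, CXCL3, 1 of 2 for CXCL8, 1 of 2 for IL1A and both for IL1B. Differences were tested with limma over the 3057 probe sets that passed, and "called" means here an adjusted p no higher than 0.05 together with a log2 fold change of 1 or more in either direction. Where arrays of 2 groups are said to overlap or not, this describes the values. The share of all tested probe sets whose arrays separate in the same way was not counted. The RNA was bulk RNA, so fewer cells that express a gene and less RNA per cell cannot be told apart.

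The arrays were first checked against their labels. A piroxicam score was the mean difference from untreated 24 h cells over 56 probe sets called between arrays with and without piroxicam at 8 h, signed by their direction there and with the members left out. At 24 h it was 1.51 to 1.55 in P arrays, 0.35 to 0.39 in C arrays and −0.15 and 0.15 in untreated arrays. Of the P/C arrays, replicate 1 had 0.45 and replicate 3 had 1.30, so the array labelled replicate 1 lay near the C arrays. The median difference from untreated 24 h cells of 7 p53 target genes was 0.23 in the array labelled C 24 h replicate 1, against 1.16 and 1.41 in the other C arrays and −0.19 and 0.19 in untreated arrays. For many of the differences between groups at 24 h that use these 2 doubtful arrays, values without them are given as well. The rest are given with all arrays only. All 3 comparisons with untreated cells at 24 h share the same 2 untreated arrays. Of 16 leukocyte marker genes with a probe set, none reached a signal of 100 on any array, and their summed signal was 56.8 to 68.5 over all 18 arrays. Of 11 stromal and endothelial markers COL3A1 reached it, on 4 arrays (3.44 to 7.69 over all 18), and the summed signal of that list at 24 h was 67.6 to 75.3 in P, 92.9 to 172 in C, 73.6 to 233 in P/C and 86.5 to 259 in untreated arrays. Of 13 mesothelial and keratin markers, 4 reached that signal (KRT8, KRT18, CDH2 and VIM), whereas mesothelin (MSLN) was at 1.99 to 2.57 and calretinin (CALB2) at 3.02 to 3.97. The summed signal of the 13 at 24 h was 7290 to 7740 in P, 8300 to 8580 in C, 7050 to 8970 in P/C and 8510 to 9120 in untreated arrays.

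**Figure D1:**
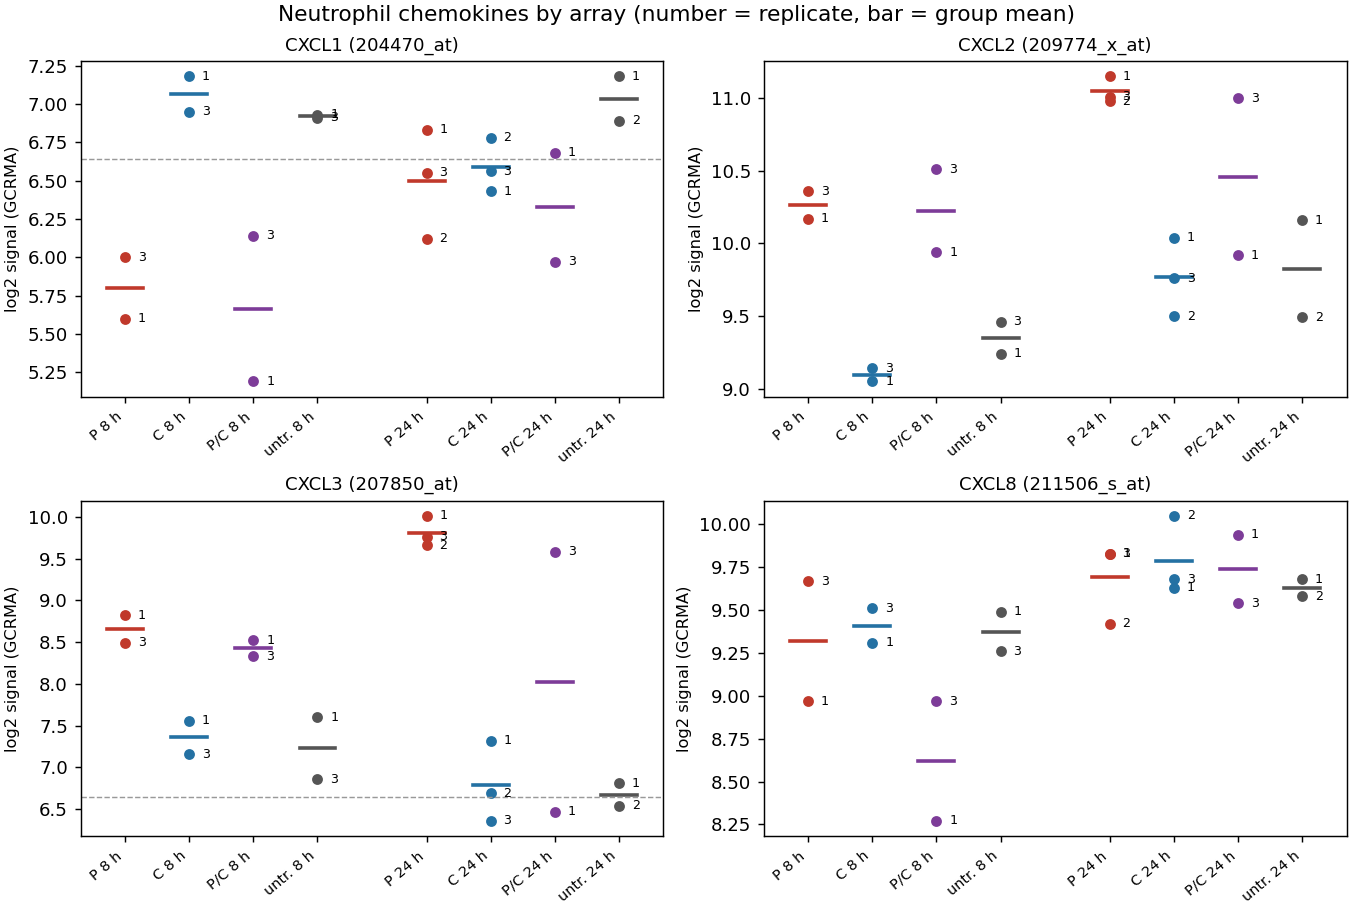
Log2 signal (y axis) of CXCL1, CXCL2, CXCL3 and CXCL8 (1 panel each, probe set in brackets) on every array, by group, with numbers for the replicates, bars for group means and a dashed line at a signal of 100 (log2 6.64) where the panel reaches it. At 8 h CXCL1 is lower and CXCL2 and CXCL3 are higher on all 4 arrays with piroxicam than on the 4 without, and at 24 h the 2 P/C arrays of CXCL3 lie at 6.47 and 9.58.

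With piroxicam for 8 h, taken over both cisplatin states, CXCL1 was lower and CXCL2 was higher. CXCL1, also known as GRO alpha, had 5.60 and 6.0 in P cells, 7.18 and 6.95 in C cells, 5.19 and 6.14 in P/C cells and 6.93 and 6.91 in untreated cells. All 4 arrays with piroxicam lay below all 4 arrays without it, and below a signal of 100, while those without it lay above that signal. Over both cisplatin states the piroxicam arrays averaged 5.73, against 6.99 without piroxicam, and CXCL1 fell by 1.26 (SE 0.23, adjusted p = 0.00498). The call was kept in every alternative in which CXCL1 was tested, with log2 fold changes from −1.5 to −1.02. In the separate comparisons with untreated cells, of 2 arrays against 2, the differences had the same size, −1.12 (SE 0.32, adjusted p = 0.174) for P and −1.25 (SE 0.32, adjusted p = 0.11) for P/C, but did not pass the test.

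CXCL2, also known as GRO beta, moved the other way. It had 10.17 and 10.36 in P cells, 9.05 and 9.14 in C cells, 9.94 and 10.51 in P/C cells and 9.24 and 9.46 in untreated cells. Again the 4 arrays with piroxicam did not overlap the 4 without it. The difference over both cisplatin states was 1.02 (SE 0.23, adjusted p = 0.0183), 10.24 with piroxicam and 9.22 without. In the separate comparisons with untreated cells CXCL2 differed by 0.91 (SE 0.32, adjusted p = 0.272) for P and 0.88 (SE 0.32, adjusted p = 0.288) for P/C. Neither was called. The call over both cisplatin states stood near both limits. It was lost without any one of untreated 8 h replicate 1, P 8 h replicate 3, C 8 h replicate 1, C 8 h replicate 3 or P/C 8 h replicate 3, with adjusted p of 0.0521 to 0.0811. The CXCL2 probe set is of the kind marked as able to hybridise with transcripts of other genes, and whether its close relatives add to its signal was not tested.

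CXCL3, also known as GRO gamma, had 8.82 and 8.49 in P cells, 7.56 and 7.16 in C cells, 8.52 and 8.33 in P/C cells and 7.60 and 6.86 in untreated cells at 8 h. Here too the 4 arrays with piroxicam lay above the 4 without. The difference was 1.25 (SE 0.45, adjusted p = 0.129), 8.54 with piroxicam and 7.29 without, and it was not called. The SE of this gene is shared over all groups and includes the 2 P/C arrays at 24 h, which had an SD of 2.20, against 0.14 to 0.52 in the other 7 groups. With P/C 24 h replicate 1 left out, an array that is not part of the 8 h comparison, the same difference had an adjusted p of 0.00345, and in a fit restricted to the 8 h arrays it had 0.0137.

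Over both cisplatin states at 8 h, 2 of the 7 tested member probe sets were called, CXCL2 higher and CXCL1 lower, where 1.9% of all tested probe sets were called, made up of 0.785% that were higher and 1.11% that were lower. Of the members 5 of the 7, and of all 19.3%, had an unadjusted p under 0.05. With P against untreated cells at 8 h no member was called, where 0.491% of all tested probe sets were, although 5 of the 7 had an unadjusted p under 0.05 in limma, as did 9.58% of all. With P/C 1 of the 7 was called, IL1B, where 0.622% of all were, and 5 of the 7 and 11.8% of all had an unadjusted p under 0.05. With C no member was called and none had an unadjusted p under 0.05, where 0% of all tested probe sets were called and 1.14% had such a p. The medians over the 7 probe sets were −0.06 with P, 0.03 with C and −0.75 with P/C, against −0.03, 0.03 and −0.05 over all tested probe sets.

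After 24 h with piroxicam alone, CXCL3 had the largest difference of the members. It had 10.01, 9.66 and 9.76 in P cells, 7.32, 6.69 and 6.36 in C cells, and 6.81 and 6.54 in untreated cells. The 3 P arrays lay above every array of the other groups at 24 h, and C and untreated arrays overlapped. The mean was 9.81 ± 0.18 in P cells (SD, n = 3) and 6.68 ± 0.19 in untreated cells (SD, n = 2), and the difference of 3.13 (SE 0.58, adjusted p = 0.00158) is a signal 8.77 times as high. Its call was kept in every alternative tried, with log2 fold changes of 2.94 to 3.27. Against C cells CXCL3 was higher in P cells by 3.02 (SE 0.52, adjusted p = 0.00143), while C cells differed from untreated cells by 0.12 (SE 0.58, adjusted p = 0.943), with a 95% interval from −1.11 to 1.34 that covers a doubling. Without the array labelled C 24 h replicate 1 these differences were 3.28 (adjusted p = 0.00164) and −0.15 (adjusted p = 0.917).

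CXCL2 also rose with P at 24 h. It had 11.15, 10.98 and 11.01 in P cells, 10.04, 9.50 and 9.76 in C cells, and 10.16 and 9.49 in untreated cells. The P arrays were above all C and untreated arrays, which overlapped each other. The difference was 1.22 against untreated cells (SE 0.29, adjusted p = 0.00704), with means of 11.05 ± 0.09 (SD, n = 3) in P cells and 9.82 ± 0.47 (SD, n = 2) in untreated cells. It was 0.89 (adjusted p = 0.127) without untreated 24 h replicate 2. Against C cells it was 1.28 (SE 0.26, adjusted p = 0.00362), and 1.42 (adjusted p = 0.00417) without C 24 h replicate 1. With P at 24 h these 2 of the 7 tested member probe sets were called, both higher, where 14.6% of all tested probe sets were called and 3.14% were called higher, and the same 2 members and 41.2% of all had an unadjusted p under 0.05. In P against C cells the same 2 were called, where 10.9% of all were called and 3.21% were called higher, and 4 of the 7 and 37.9% of all had an unadjusted p under 0.05. At 24 h the P arrays also lay below the C and untreated arrays in the summed stromal and mesothelial markers, and the part of this in the chemokine values was not tested.

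The P/C cultures at 24 h split for these 2 chemokines. CXCL3 had 6.47 in replicate 1 and 9.58 in replicate 3. The first value lay within the C and untreated arrays, and the second was just under the P arrays. CXCL2 had 9.92 in replicate 1 and 11.00 in replicate 3, split in the same way. With both arrays, CXCL3 was 1.35 higher in P/C than in untreated cells (SE 0.63, adjusted p = 0.167) and CXCL2 was 0.63 higher (SE 0.32, adjusted p = 0.199), and neither was called. Without replicate 1 the CXCL3 difference was 2.91 and the CXCL2 difference 1.18, whereas without replicate 3 the CXCL3 difference was −0.20. Each of these values rests on 1 P/C array. Replicate 1 was singled out by its low piroxicam score, so leaving it out gives no separate test of genes that rise with piroxicam. The split went with the piroxicam score of 0.45 in replicate 1 and 1.30 in replicate 3, and the part of what sets these arrays apart was not tested.

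**Figure D2:**
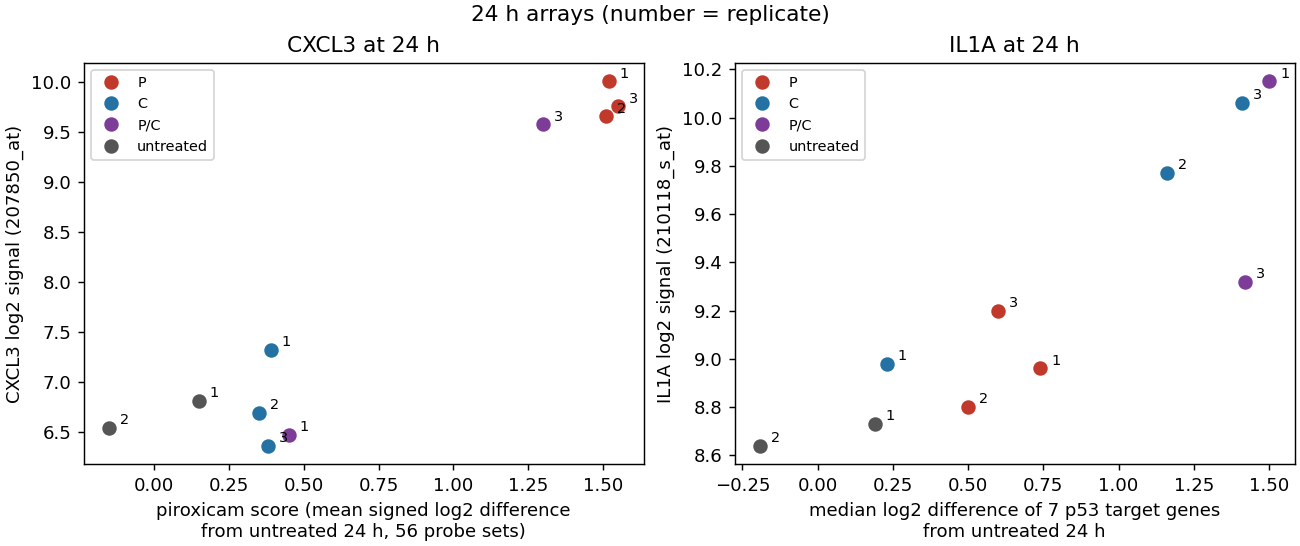
Each point is 1 array at 24 h, numbered by replicate and coloured by group. The left panel plots the CXCL3 log2 signal against the piroxicam score over 56 probe sets, where P/C replicate 3 (1.30, 9.58) lies near the P arrays and P/C replicate 1 (0.45, 6.47) among the C arrays, and the right panel plots the IL1A log2 signal against the median difference of 7 p53 target genes, where C replicate 1 (0.23, 8.98) lies near the untreated arrays.

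Between P/C and the single drugs at 24 h no member was called with all arrays. CXCL3 was 1.78 lower in P/C than in P cells (SE 0.58, adjusted p = 0.113) and 1.24 higher than in C cells (SE 0.58, adjusted p = 0.335). Each of these differences rested on which P/C array was kept. Against P cells the CXCL3 difference was −3.34 without P/C 24 h replicate 3 and −0.22 without replicate 1. Against C cells it was 2.79 without replicate 1 and −0.32 without replicate 3. Each of these values rests on 1 P/C array. In P/C against P cells limma called 0 of the 7 members and 0.164% of all tested probe sets, with 3 members and 19.9% of all at an unadjusted p under 0.05, and in P/C against C cells it called 0 of 7 and 0.0981%, with 2 members and 14.8% of all at such a p.

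CXCL1 at 24 h had 6.83, 6.12 and 6.55 in P cells, 6.43, 6.78 and 6.56 in C cells, 6.68 and 5.97 in P/C cells and 7.18 and 6.89 in untreated cells. All treated arrays lay below both untreated arrays, but the treated groups overlapped and several arrays were near or below a signal of 100. The differences from untreated cells were −0.54 (SE 0.29, adjusted p = 0.179) in P, −0.44 (SE 0.29, adjusted p = 0.49) in C and −0.71 (SE 0.32, adjusted p = 0.155) in P/C cells, and none was called. Without C 24 h replicate 1 the C difference was −0.36 (adjusted p = 0.539), and without P/C 24 h replicate 1 the P/C difference was −1.07 (adjusted p = 0.0687). Whether the smaller difference of CXCL1 at 24 h than at 8 h, or the larger one of CXCL3, is a change of effect was asked by the difference of the P effects. For CXCL1 the P effects differed by 0.58 (SE 0.44, adjusted p = 0.612). For CXCL3 the P effect was 1.70 larger at 24 h (SE 0.86, adjusted p = 0.415), and no member was called, where 0.196% of all tested probe sets were. No member had an unadjusted p under 0.05 in limma, against 12.7% of all. The CXCL3 difference had an adjusted p of 0.0603 with P/C 24 h replicate 1 left out, and it was called with both doubtful arrays left out (adjusted p = 0.0252), neither of which is part of this comparison, and when only the P and untreated arrays were fitted.

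CXCL8, or interleukin-8, the most studied of the neutrophil chemokines, did not pass the test in any comparison. Its tested probe set (211506_s_at) had 8.97 and 9.67 in P cells, 9.31 and 9.51 in C cells, 8.27 and 8.97 in P/C cells and 9.49 and 9.26 in untreated cells at 8 h. Both P/C arrays lay below the untreated arrays, with a difference of −0.75 (SE 0.29, adjusted p = 0.31), and the P and C arrays overlapped the untreated arrays. At 24 h it had 9.83, 9.42 and 9.83 in P cells, 9.63, 10.05 and 9.68 in C cells, 9.94 and 9.54 in P/C cells and 9.68 and 9.58 in untreated cells, and all groups overlapped. The P difference at 24 h was 0.07 (SE 0.26, adjusted p = 0.875), with a 95% interval from −0.49 to 0.62, an interval that leaves out a doubling. The second probe set (202859_x_at) ran from 10.19 to 10.93 over the 18 arrays and was too flat for the filter, with an IQR of 0.24. Like the CXCL2 probe set, it is of the kind marked as able to hybridise with transcripts of other genes. The 2 CXCL8 probe sets had a correlation of 0.546 over the 18 arrays, so they did not follow each other closely.

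**Figure D3:**
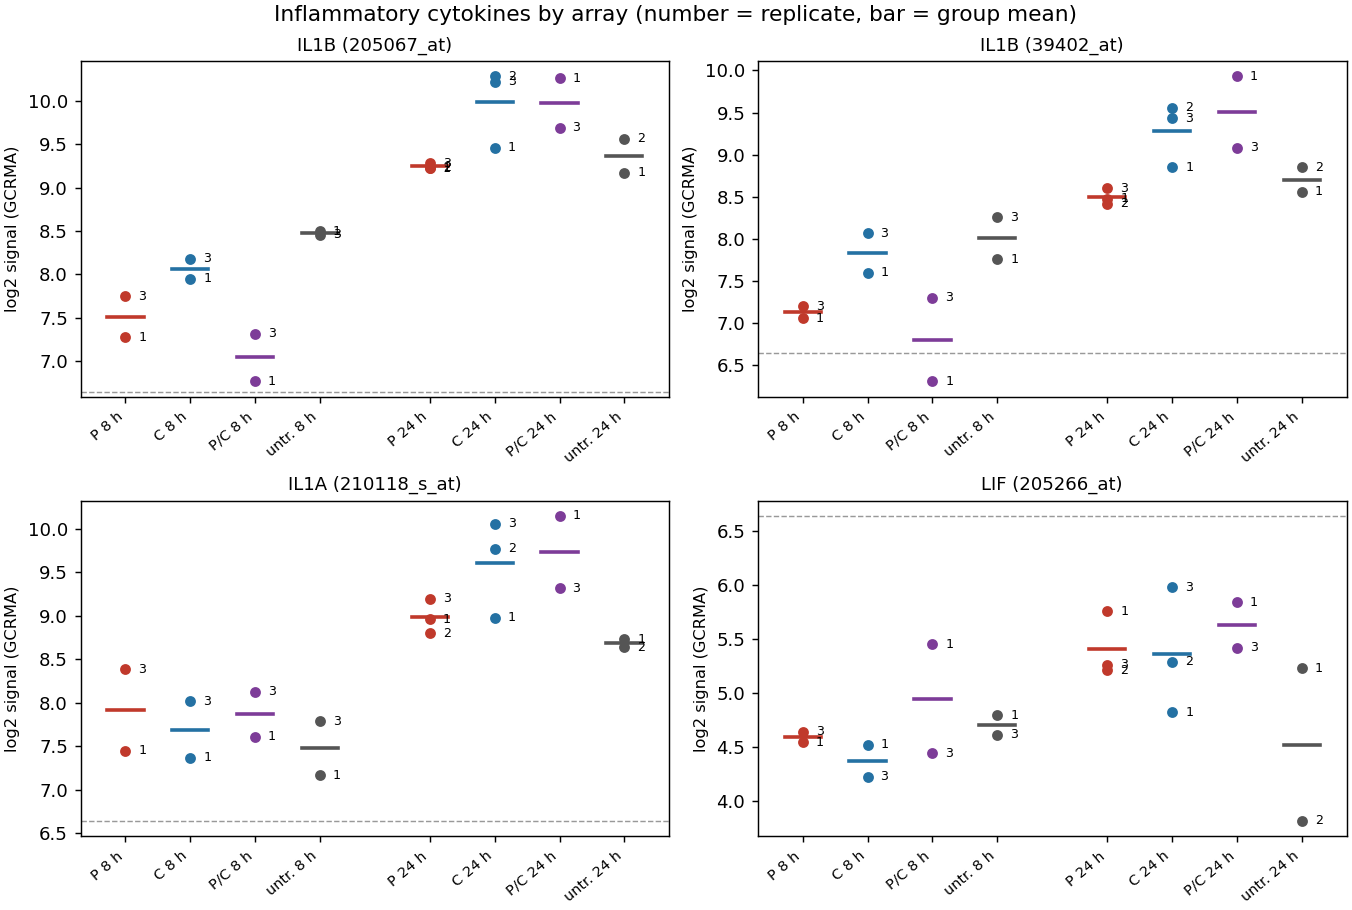
Log2 signal (y axis) of IL1B (both probe sets), IL1A and LIF on every array, by group, with numbers for the replicates, bars for group means and a dashed line at a signal of 100 (log2 6.64). IL1B is lower on the 4 arrays with piroxicam at 8 h than on the 4 without, the IL1A and IL1B arrays at 24 h lie above those at 8 h of the same treatment, which passed no test in untreated cells, and LIF stays under the dashed line.

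IL1B, the secreted form of interleukin-1, was lower with P/C at 8 h. On its first probe set (205067_at) it had 7.28 and 7.75 in P cells, 7.95 and 8.18 in C cells, 6.77 and 7.32 in P/C cells and 8.50 and 8.46 in untreated cells at 8 h. The 4 arrays with piroxicam lay below the 4 without, and the P/C arrays included the lowest. With P/C it fell by 1.44 (SE 0.30, adjusted p = 0.0383), with means of 7.04 ± 0.40 in P/C cells and 8.48 ± 0.03 in untreated cells (SD, n = 2 each). The call was lost without untreated 8 h replicate 1 (adjusted p = 0.184), untreated 8 h replicate 3 (0.21) or P/C 8 h replicate 1 (0.336). It was also lost without the filter (0.1), after quantile normalization (0.0552), with array weights (0.058) and when only its own arrays were fitted (0.107). Over both cisplatin states the difference was −0.996 (SE 0.21, adjusted p = 0.0134), just short of the fold limit.

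The second IL1B probe set (39402_at) had 7.06 and 7.20 in P cells, 7.60 and 8.07 in C cells, 6.31 and 7.30 in P/C cells and 7.76 and 8.26 in untreated cells at 8 h, and the arrays with and without piroxicam again did not overlap. Its differences were −0.96 (SE 0.25, adjusted p = 0.036) over both cisplatin states and −1.21 (SE 0.35, adjusted p = 0.163) for P/C against untreated cells, neither called. The 2 probe sets had a correlation of 0.978 over the 18 arrays.

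At 24 h IL1B (205067_at) had 9.22, 9.23 and 9.28 in P cells, 9.46, 10.28 and 10.22 in C cells, 10.26 and 9.69 in P/C cells and 9.17 and 9.56 in untreated cells. The P arrays were close together and within the untreated arrays, and both P/C arrays were above them. The differences from untreated cells were −0.12 (SE 0.27, adjusted p = 0.771) in P, 0.62 (SE 0.27, adjusted p = 0.33) in C and 0.61 (SE 0.30, adjusted p = 0.184) in P/C cells. The C difference was 0.88 (adjusted p = 0.0622) without C 24 h replicate 1, and the P/C difference was 0.33 (adjusted p = 0.566) without P/C 24 h replicate 1. P cells were below C cells on all arrays, with a difference of −0.74 (SE 0.24, adjusted p = 0.0377) that was under the fold limit. Without the array labelled C 24 h replicate 1 it was −1.004 and called (adjusted p = 0.00831). That array was the lowest C array for IL1B and was singled out after the data were seen, so leaving it out gives no separate test. With P/C the IL1B difference from untreated cells was thus negative at 8 h and positive at 24 h, and the 2 effects differed by 2.05 (SE 0.42, adjusted p = 0.144) on this probe set and by 2.01 (SE 0.49, adjusted p = 0.276) on the other. This contrast was added after the values had been seen. It called 0 of 7 members, and 0.0654% of all tested probe sets, and 3 members and 10.6% of all had an unadjusted p under 0.05 in limma. IL1B (205067_at) was called with C 24 h replicate 1 left out (2.05, adjusted p = 0.028), an array that is not part of the contrast, and with both doubtful arrays left out (1.76, adjusted p = 0.0413), but not without P/C 24 h replicate 1 alone (1.76, adjusted p = 0.114). The same contrast for C, added with it, called 0 of 7 members and 0% of all, with 1 member and 2.55% of all at an unadjusted p under 0.05. On the second probe set (39402_at) the P against C difference at 24 h was −0.78 (SE 0.28, limma adjusted p = 0.0562). Its P/C difference was 0.80 from untreated cells (SE 0.35, adjusted p = 0.139) and 1.01 from P cells (SE 0.32, adjusted p = 0.103). None of these was called, and without P/C 24 h replicate 1 the P/C differences were 0.37 and 0.58.

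IL1A, the form of interleukin-1 that is active without cleavage, was measured by 1 bright probe set (210118_s_at). At 8 h it had 7.45 and 8.39 in P cells, 7.37 and 8.02 in C cells, 7.61 and 8.13 in P/C cells and 7.17 and 7.79 in untreated cells. In every group replicate 3 was above replicate 1, and all groups overlapped. Set against the untreated array of the same number, the treated arrays were 0.28 and 0.60 higher with P, 0.20 and 0.24 higher with C and 0.44 and 0.34 higher with P/C, and with the number as a block the adjusted p was 0.672, 0.999 and 0.629 for these treatments. At 24 h it had 8.96, 8.80 and 9.20 in P cells, 8.98, 9.77 and 10.06 in C cells, 10.15 and 9.32 in P/C cells and 8.73 and 8.64 in untreated cells. All treated arrays lay above both untreated arrays, and the C and P/C cells had the highest means. The differences from untreated cells were 0.30 (SE 0.36, adjusted p = 0.551) in P, 0.92 (SE 0.36, adjusted p = 0.305) in C and 1.05 (SE 0.40, adjusted p = 0.095) in P/C cells, none of them called. The P/C difference was 0.64 (adjusted p = 0.379) without P/C 24 h replicate 1.

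The array labelled C 24 h replicate 1, which was near untreated cells in the p53 target genes, was also the lowest C array for IL1A and for both IL1B probe sets. Without it IL1A was 1.24 higher in C than in untreated cells (adjusted p = 0.0599). This array was singled out by its low p53 target level, after the data were seen. As it was also the lowest C array, leaving it out gives no separate test of IL1A. With C at 24 h limma called 0 of the 7 members with all arrays, 2 of which had an unadjusted p under 0.05, and 0% of all tested probe sets, 13.8% of which had such a p. With P/C at 24 h it called 0 of 7, with 4 members and 29.5% of all at an unadjusted p under 0.05, where 6.87% of all tested probe sets were called. The part of the p53 target level of these arrays in the interleukin-1 values was not tested.

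Between the times, untreated cells at 24 h and at 8 h differed by 1.20 for IL1A (SE 0.40, adjusted p = 0.664) and by 0.88 for IL1B (SE 0.30, adjusted p = 0.669), which did not pass the test, although for both genes the untreated arrays at 24 h lay above those at 8 h. No member was called between the times in untreated cells, where 0.0981% of all tested probe sets were, and 2 of the 7 and 5.56% of all had an unadjusted p under 0.05 in limma. The effects of the drugs at the 2 times were tested against each other only as differences from untreated cells of the same time.

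**Figure D4:**
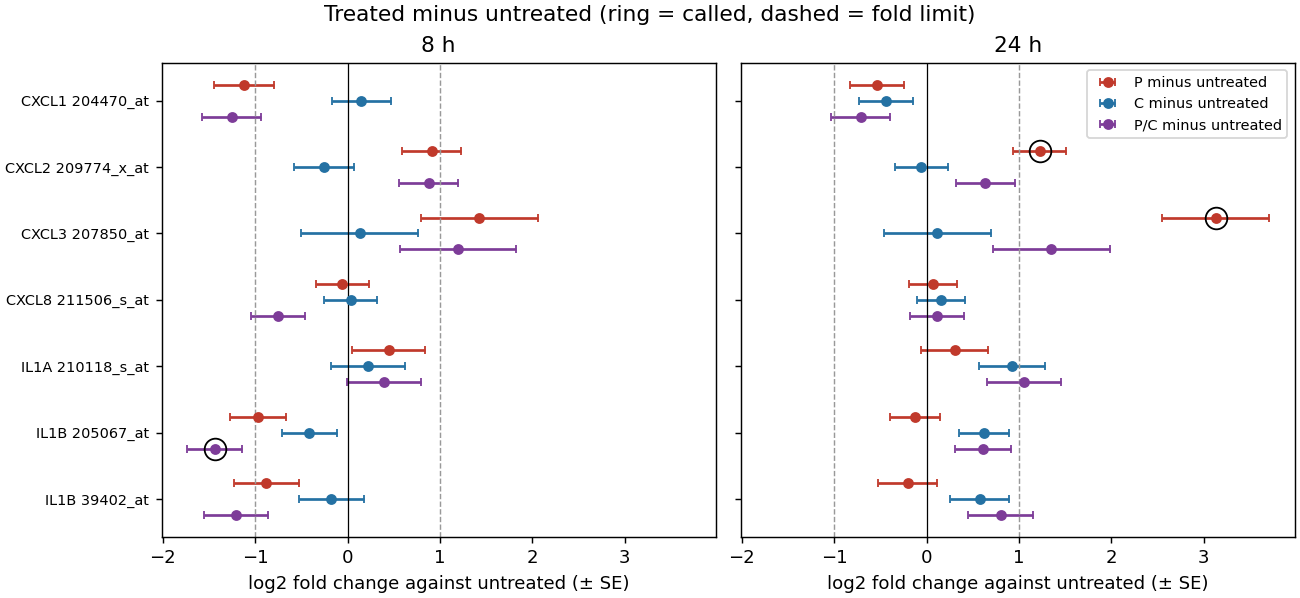
Log2 fold change against untreated cells (x axis, bars are SE) of the 7 tested member probe sets with P, C and P/C at 8 h (left) and 24 h (right). Dashed lines mark the fold limit and rings the called differences, which are IL1B (205067_at) with P/C at 8 h (−1.44) and CXCL2 (1.22) and CXCL3 (3.13) with P at 24 h.

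The cytokines that signal through gp130 were dim. LIF, leukemia inhibitory factor, stayed under a signal of 100 on all 18 arrays and over the array median on all of them, so it was not tested with the filter. At 24 h it had 5.76, 5.21 and 5.26 in P cells, 4.82, 5.29 and 5.98 in C cells, 5.84 and 5.42 in P/C cells and 5.23 and 3.81 in untreated cells. The untreated arrays were far apart, and the upper one lay within the P and C arrays. In a fit of all probe sets the differences were 0.89 (SE 0.41, adjusted p = 0.266) in P, 0.84 (SE 0.41, adjusted p = 0.631) in C and 1.11 (SE 0.44, adjusted p = 0.251) in P/C cells. Without C 24 h replicate 1 the C difference of LIF was 1.12 (adjusted p = 0.261), and without P/C 24 h replicate 1 its P/C difference was 0.89 (adjusted p = 0.565). At 8 h it ran from 4.22 to 5.45 over the 8 arrays.

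IL6 ran from 1.91 to 2.56, the 2 IL11 probe sets from 1.67 to 2.28 and from 2.14 to 2.75, and CCL20 from 1.72 to 2.11. They were below the median of their array on all 18 arrays, as was the second IL1A probe set (208200_at, 1.85 to 2.59). At these levels no change could be seen with this array, which is not the same as absence of the transcript. Their differences from untreated cells gave no call in the fit of all probe sets. For IL1A the other probe set ran from 7.17 to 10.15, and the 2 IL1A probe sets had a correlation of 0.233.

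Over the 18 arrays, CXCL2 and CXCL3 had a correlation of 0.803, while CXCL1 had −0.433 with CXCL2 and −0.502 with CXCL3. IL1A and IL1B (205067_at) had a correlation of 0.852, and CXCL8 had 0.825 with IL1B and 0.63 with CXCL1. Without the 2 doubtful arrays these were 0.833, −0.431, −0.51, 0.828, 0.807 and 0.64. These correlations describe arrays that share 8 groups and carry no test. Whether transcripts of close relatives add to the CXCL2 signal, and so to its correlation with CXCL3, was not tested. The gene with a single symbol whose tested probe set followed CXCL2 most closely was EVI2A (r = 0.961), followed by ATF4, a transcription factor of the integrated stress response (0.953), and ASNS, asparagine synthetase (0.952). For CXCL3 they were RETREG2 (0.919), ALDH1A3, a retinaldehyde dehydrogenase (0.91), and SH3GLB1 (0.89). IL1B (205067_at) was followed by IER3, an early response gene (0.937), and IFI16, a DNA sensor (0.888), and IL1A by CAST, the calpain inhibitor (0.926), SAT1, a polyamine acetyltransferase (0.92), and TXNIP, an inhibitor of thioredoxin (0.909). For CXCL1 the closest were RBM25 (0.81) and GALC (0.808), and for CXCL8, after IL1B, it was CCNB1IP1 (0.769).

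Other genes of these pathways were read from fixed lists. Of 13 receptor genes for these or related ligands, all with a probe set, none passed the filter. IL6ST, which encodes gp130, was the only one at a signal of 100, with 9.27 to 9.92 over all 18 arrays. None of 22 other chemokine and cytokine genes and none of 10 genes of the IL-1 pathway with a probe set passed the filter. Of 13 NF-kB subunits, inhibitors and other regulators with a probe set 2 were tested, NFKB1 and NFKBIA, and none was called in any comparison. NFKBIA, the inhibitor that NF-kB itself induces, had differences of 0.61 with piroxicam at 8 h (SE 0.17, adjusted p = 0.053), 0.59 with P at 24 h (SE 0.22, adjusted p = 0.0599) and 0.57 with P/C at 24 h (SE 0.25, adjusted p = 0.136). NFKB1, which encodes the p50 subunit, had −0.54 (SE 0.21, adjusted p = 0.162), 0.21 (SE 0.27, adjusted p = 0.576) and 0.997 (SE 0.29, adjusted p = 0.0421) in the same comparisons, the last just short of the fold limit. The P/C differences of both genes include the doubtful P/C 24 h replicate 1 and are given with all arrays only.

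Of 17 NF-kB target genes with a probe set 6 were tested, and none was called against untreated cells. With piroxicam over both cisplatin states at 8 h their median difference was −0.55, against −0.05 over all tested probe sets. NFKBIA, also in this list, was higher there. The others were lower: BIRC2 −0.81 (limma adjusted p = 0.0227), IER3 −0.78, TNIP1 −0.69, PTX3 −0.41 and SDC4 −0.30, none called. At 24 h the list did not show this lowering. Against untreated cells its median difference was −0.27 with P, 0.49 with C and 0.49 with P/C. Over all tested probe sets these medians were −0.22, −0.1 and −0.12. In P against C cells at 24 h 2 were lower, SDC4, a cell surface proteoglycan (−1.48, SE 0.34, adjusted p = 0.00685), and IER3 (−1.01, SE 0.25, adjusted p = 0.0101), where 7.65% of all tested probe sets were called lower. Without C 24 h replicate 1 these were −1.82 (adjusted p = 0.00236) for SDC4 and −1.26 (adjusted p = 0.00365) for IER3. IER3 lost its call without P 24 h replicate 1 (−0.96), C 24 h replicate 2 (−0.82) or C 24 h replicate 3 (−0.95). Of 14 genes of the gp130 and STAT3 pathway 5 were tested. CEBPB, a transcription factor of the C/EBP family, was 1.05 higher with piroxicam at 8 h (SE 0.23, adjusted p = 0.0141) and 1.14 higher with P at 24 h (SE 0.29, adjusted p = 0.00971), the only one of the 5 called there, where 0.785% and 3.14% of all were called higher. The 8 h call was lost without untreated 8 h replicate 3, P 8 h replicate 1, C 8 h replicate 3 or P/C 8 h replicate 1 (adjusted p of 0.0514 to 0.0611), and the 24 h difference was 0.57 (adjusted p = 0.231) without untreated 24 h replicate 2. STAT3 itself was 1.53 higher with P/C at 24 h (SE 0.33, adjusted p = 0.0152), 1 of the 5 where 2.65% of all were called higher, and its adjusted p was 0.0327 with the doubtful P/C 24 h replicate 1 left out but 0.0644 without P/C 24 h replicate 3 and 0.18 without untreated 24 h replicate 2. Of 8 genes with a probe set in a list of mRNA decay factors 5 were tested. ZFP36L2, which promotes the decay of AU-rich mRNAs, was 1.21 higher with P/C at 24 h (SE 0.31, adjusted p = 0.0293), where again 2.65% of all were called higher. That call was lost with the doubtful P/C 24 h replicate 1 left out (0.88, adjusted p = 0.119), and without untreated 24 h replicate 1 (0.131) or replicate 2 (0.13).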

How the data were processed

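RNA of 18 cultures was measured on HGU133A arrays. The authors left out arrays whose raw intensities were outliers, and deposited log2 signals computed by GCRMA (version not given in the sources used here), a method of background correction and normalization. The number of arrays limits the precision. The study's stated filter was applied: an IQR no lower than 0.25, and a signal of 100 or more in 25% or more of the arrays. Of the 22283 probe sets 10388 met the first limit, and without 68 control probe sets both limits left 3057. These numbers differ from those the study states for the same limits, so its filtered set was not rebuilt here. A single model with a mean per group, for 8 groups and 18 arrays, was fitted by limma 3.58.1 (R 4.3.3) (10 residual and 5.76 prior degrees of freedom). Two-sided p values of 12 comparisons, and of 2 added after values were seen, were adjusted by the Benjamini-Hochberg method over the 3057 probe sets. Members outside the filter were taken from a fit of 22215 probe sets. The annotation gives 1 symbol to 19071 probe sets, several to 1043 and none to 2169, and no symbol changed on update. The fit was tested on simulated data. Named genes were the members, the called genes of fixed lists and the 3 probe sets most correlated with each tested member, beside single genes chosen after their values were seen (NFKBIA and NFKB1). The members and lists were chosen with earlier results of these data known. Promoters were matched by symbol to RefSeq windows of GRCh38.p14 with Biopython 1.88, for 9 of 10 members.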

Additional observations from a re-analysis of the deposited data

How the results depend on the processing

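With 2 or 3 arrays a group, single arrays decided many calls, and dim signals limit what could be seen of IL6, IL11, CCL20 and LIF. Leaving out an array can leave a group with 1 array, which is then assumed to vary like the others. Over all alternatives 184 counts of called members stayed within 1.5 times the main count and 24 did not. In most comparisons the main count was 0, where 0 again is taken as the same, and some alternatives left out an array outside the comparison. The total therefore says little about how stable the calls are. With P at 8 h the count of 0 was 1 (CXCL3) when P/C 24 h replicate 1 was left out and 1 when C 24 h replicate 1 was left out with it (the 2 doubtful arrays), both chosen after the data were seen. With P/C at 8 h the count of 1 was 0 without the filter (adjusted p = 0.1), 0 after quantile normalization (0.0552), 0 with array weights (0.058), 0 when only its own arrays were fitted (0.107), 4 without both doubtful arrays, and 0 to 2 when each array was left out. For piroxicam over both cisplatin states at 8 h the count of 2 was 1 at a signal of at least 200, where CXCL1 was not tested, and 1 to 3 when each array was left out. With P at 24 h the count of 2 was 1 to 2, and in P against C cells it was 2 to 3. With C at 24 h the count of 0 was 1 with array weights and 1 without both doubtful arrays (IL1A), and 0 when each array was left out. With P/C at 24 h the count of 0 was 2 without both doubtful arrays and 0 to 2 when each array was left out. It was 0 to 3 for P/C against P, and 0 to 2 for P/C against C, with 2 without both doubtful arrays. The difference of the P effects called 1 (CXCL3) without both doubtful arrays and 1 when only its own arrays were fitted, against 0, and that of the P/C effects 1 (IL1B) without both doubtful arrays or without C 24 h replicate 1, against 0. At 24 h the CXCL3 difference was −0.20 to 2.91 in P/C against untreated cells and −0.32 to 2.79 against C cells when each array was left out, reversed without P/C 24 h replicate 3. Causes were not tested beyond these constructions. A replicate block over all arrays changed no member's call and no count: with it IL1B with P/C at 8 h had an adjusted p of 0.0303 and CXCL3 with P at 24 h a log2 fold change of 2.94 (adjusted p = 0.0046). A block for the 8 h arrays alone, chosen after the pairing was seen, gave IL1B 0.0279. The replicate numbers are a hint of pairing from the data, not from the design: at 8 h, same-numbered arrays deviated together from their group means in all 6 pairs of groups (r = 0.203 to 0.66), where the 2 arrays of a group are mirror images and add no further value, and at 24 h r was over 0 in 7 of 12 pairs of arrays and over 0.1 in 5 (−0.223 to 0.393).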

Other observations

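The promoter windows of the members that were not seen on the arrays also held matches to these motifs. CCL20 had an NF-kB-like match at 79 bases and IL6 at 72 bases before the start, though both were below the array median on all 18 arrays, and IL11 had an AP-1-like match at 96 bases. IL1B, whose signal ran from 6.77 to 10.28, had none of the 3 motifs in its window. No match says only that these letters are not in this window.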
